A study of Mus musculus with 62 samples.

Results

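The genes described here are 38 genes of fibroblasts, tendon and extracellular matrix and were found in 4 tables of RNA-seq values of mouse skeletal muscle and of C2C12 cells. In 3 tables they were found by symbol and in the table of the AAV libraries by NCBI gene ID, whose symbols came from RefSeq. All 38 were found in each table, and the largest table held 29239 genes. The 38 genes, and the lists of other genes used below, were chosen with earlier results of these data known. Counts of genes called among them are therefore not independent of the data. By known role the 38 were 5 fibrillar collagens, 3 basement membrane collagens, 3 chains of collagen VI, 2 fibril-associated collagens, 7 tendon genes, 3 small proteoglycans, 5 adhesive and matricellular proteins, 4 elastic fibre proteins, 2 crosslinking enzymes, 3 genes of proteolysis and 1 fibroblast receptor.

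The study examined the role of ChREBP, the carbohydrate response element-binding protein encoded by Mlxipl, in skeletal muscle. It compared ChREBP-flox mice without Cre (F/F) with ChREBP-flox mice that carry muscle creatine kinase-Cre (ChMKO), and it raised ChREBP with a viral vector or in a cell line. There were 62 libraries in 14 groups. The mice were male, with a stated age of 8 to 10 weeks.

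The chow experiment held gastrocnemius (GC, a mixed and mainly fast muscle) and soleus (SOL, a slow muscle) of F/F and ChMKO mice, with 5 libraries in each of 4 groups and the same numbers used for both muscles within a genotype, apart from 1 SOL F/F library described with the processing. The numbers are used here to name mice, and that a GC and a SOL library of 1 number came from 1 mouse is not stated in the labels. A second experiment held GC of mice of both genotypes after normoxia (Norm), after 2 weeks of hypoxia that simulated 5500 m of altitude (Hypo), or after 3 months on a high-fructose diet with 68% of calories from fructose (HFrD), with 4 libraries in each of 6 groups. The AAV experiment held GC of C57BL6/J mice 14 days after injection of AAV9 with a CMV promoter carrying GFP (AAV-GFP) or ChREBP (AAV-ChREBP), with 5 libraries in each group. The last held C2C12 cells, a mouse myoblast line, stably transduced with an empty viral vector or with ChREBP (the study's text speaks of retroviruses in 1 place and of lentiviral vectors in another) and harvested on day 7 of differentiation, with 4 libraries of each line.

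Exon 8 of Mlxipl is floxed in F/F and ChMKO mice alike. The muscle creatine kinase promoter acts in muscle fibres, so the fibroblasts and tendon cells of a ChMKO muscle are not the cells the deletion is aimed at. The CMV promoter is not restricted to muscle fibres. Each C2C12 line is 1 stable line, so its 4 libraries are not separate transductions, and p-values there measure only the spread between these libraries, which may be technical. The HFrD mice were fed for 3 months and were set against the same Norm groups as the Hypo mice, so diet, age and cohort cannot be told apart in that comparison. The study's methods describe the removal of tendon, fascia and fat for GC tissue used in biochemical assays, and whether it was done for the muscles used for RNA is not given in the sources used here.

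The extracellular matrix of muscle surrounds each fibre and continues into the tendon. Fibroblasts of the endomysium and perimysium make fibrillar collagens type I, III and V and the microfibrils of collagen VI, while the basement membrane of fibres and capillaries is built on collagen IV. Tenocytes, the fibroblasts of tendon, add tenomodulin, fibromodulin, chondroadherin, cartilage oligomeric matrix protein and thrombospondin 4 under the control of the transcription factors scleraxis and Mohawk. In bulk tissue, fewer cells of a type and less RNA per cell cannot be told apart, and that holds for every muscle comparison below.

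All values are FPKM, fragments scaled by transcript length and by the number of mapped fragments, so levels of genes of different length can be set side by side within a table. The 4 tables were normalized separately, and levels are compared only within each. A gene was tested in a comparison when its mean reached 0.5 FPKM over the libraries compared. Fold changes are differences of log2(FPKM + 1), which understates the change of low genes, and a gene was called when its adjusted p by limma, over all genes tested, was under 0.05. "Rose" and "fell" are used only of genes called.

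The number of reads in the hypoxia and diet libraries, recovered from their values, ran from 14471542 to 23459146, and the largest relative difference in depth was 1.2-fold in the chow libraries and 1.24-fold in the AAV libraries. The targeted gene Mlxipl, whose count includes the exons left by the deletion, was at 20.4 to 30.3 FPKM in GC F/F, 12.5 to 18.5 FPKM in GC ChMKO, at 43.8 to 64.1 FPKM in SOL F/F and 29.96 to 46.2 FPKM in SOL ChMKO, and at 7.76 to 10.8 FPKM in the F/F and 2.38 to 4.49 FPKM in the ChMKO libraries of the hypoxia and diet experiment. It was at 52.9 to 101 FPKM under AAV-ChREBP against 10.4 to 12.3 FPKM under AAV-GFP, and at 12.8 to 13.8 FPKM in C2C12 ChREBP against 0.02 FPKM or less in the vector line. Within the chow table the 7 muscle fibre markers summed to 44249 to 63749 FPKM in GC F/F and 50899 to 55095 FPKM in GC ChMKO. In SOL their sums were 31717 to 35517 FPKM in F/F and 29872 to 33095 FPKM in ChMKO. No marker of fibroblasts, tenocytes or endothelium was at 0 in every library of a muscle group.

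Several libraries stood apart from their groups in these genes. The GC library of F/F mouse 69 was the lowest of its group for 33 of the 36 members with a group mean of at least 0.5 FPKM, where it was the lowest for 36% of all genes. The SOL library of F/F mouse 71 was the lowest for 31 of 37 members, against 38.2% of all genes. The Norm F/F library of mouse c369 was the highest for 36 of 38 members (44.3% of all genes) and the Norm ChMKO library of mouse KO_370 for 33 of 38 (31.8%). Their values are given beside the results that rest on them.

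The first comparison set SOL against GC in F/F mice. In the F/F mice, 12 of the 37 members tested rose in SOL and 0 fell, where 37.9% of all genes tested rose. With the library number as a block, 12.1% of all genes fell in this contrast. The 12 came from 8 role groups and included scleraxis, elastin, biglycan, periostin, Sparc and both collagen IV chains, while no fibrillar collagen and no collagen VI chain was called. The median log2 fold change of the members was 0.49, and that of all genes tested was 0.18. For 5 members the GC and SOL libraries did not overlap, with SOL the higher, as was true of 26.3% of all genes.

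Tendon genes gave the clearest view of how the libraries differed. Scx, the transcription factor scleraxis that specifies tendon cells (gene36457 in the chow table, chr15:76457092-76459468, plus strand), was at 2.94, 2.17, 2.37, 2.18 and 2.44 FPKM in GC of F/F mice 57, 58, 69, 70 and 71 and at 6.45, 7.88, 6.73, 5.25 and 5.05 FPKM in SOL of the same numbers. Values by library are given in this order of mice below, and positions are those of GRCm38, the build that the coordinates of the chow table match. All 5 SOL values were above all 5 GC values, and the log2 fold change was 1.08 (SE 0.11, limma adjusted p = 2.99e-05). Scx lies within the gene Bop1 on the opposite strand, which averaged 11.5 FPKM over the chow libraries, and with a library kit that does not mark strand their reads cannot be told apart. Comp, the cartilage oligomeric matrix protein of tendon, was at 6.06, 3.58, 0.427, 2.67 and 3.16 FPKM in GC and 12.4, 18.2, 13.7, 12.8 and 1.29 FPKM in SOL, with a log2 fold change of 1.48 (SE 0.57, limma adjusted p = 0.0485). Apart from the SOL library of mouse 71, every SOL value of Comp was above every GC value.

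The other tendon genes were not called in F/F, and the same library set them apart. Fmod, the collagen-binding proteoglycan fibromodulin (gene1650 in the chow table, chr1:134037515-134048277, plus strand), was at 94.3, 50.2, 5.04, 44.9 and 44.9 FPKM in GC and 104, 125, 103, 95.1 and 4.13 FPKM in SOL. The last SOL value, from mouse 71, was below the lowest GC value, and the log2 fold change was 0.69 (SE 0.94, limma adjusted p = 0.564). Tnmd, the tenocyte membrane protein tenomodulin, was at 7.28, 4.15, 0.495, 3.92 and 2.78 FPKM in GC and 12.9, 17.7, 12.6, 11.7 and 1.39 FPKM in SOL. Again mouse 71 was the SOL library that overlapped GC, with a log2 fold change over all libraries of 1.299 (SE 0.57, limma adjusted p = 0.0773). Chad, the cartilage and tendon protein chondroadherin, and Thbs4, thrombospondin 4 of the tendon matrix, had log2 fold changes of 1.28 and 0.89 with adjusted p of 0.183 and 0.179 by limma. Mkx, the transcription factor Mohawk, was below the level tested in both muscles of F/F mice.

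**Figure D1:**
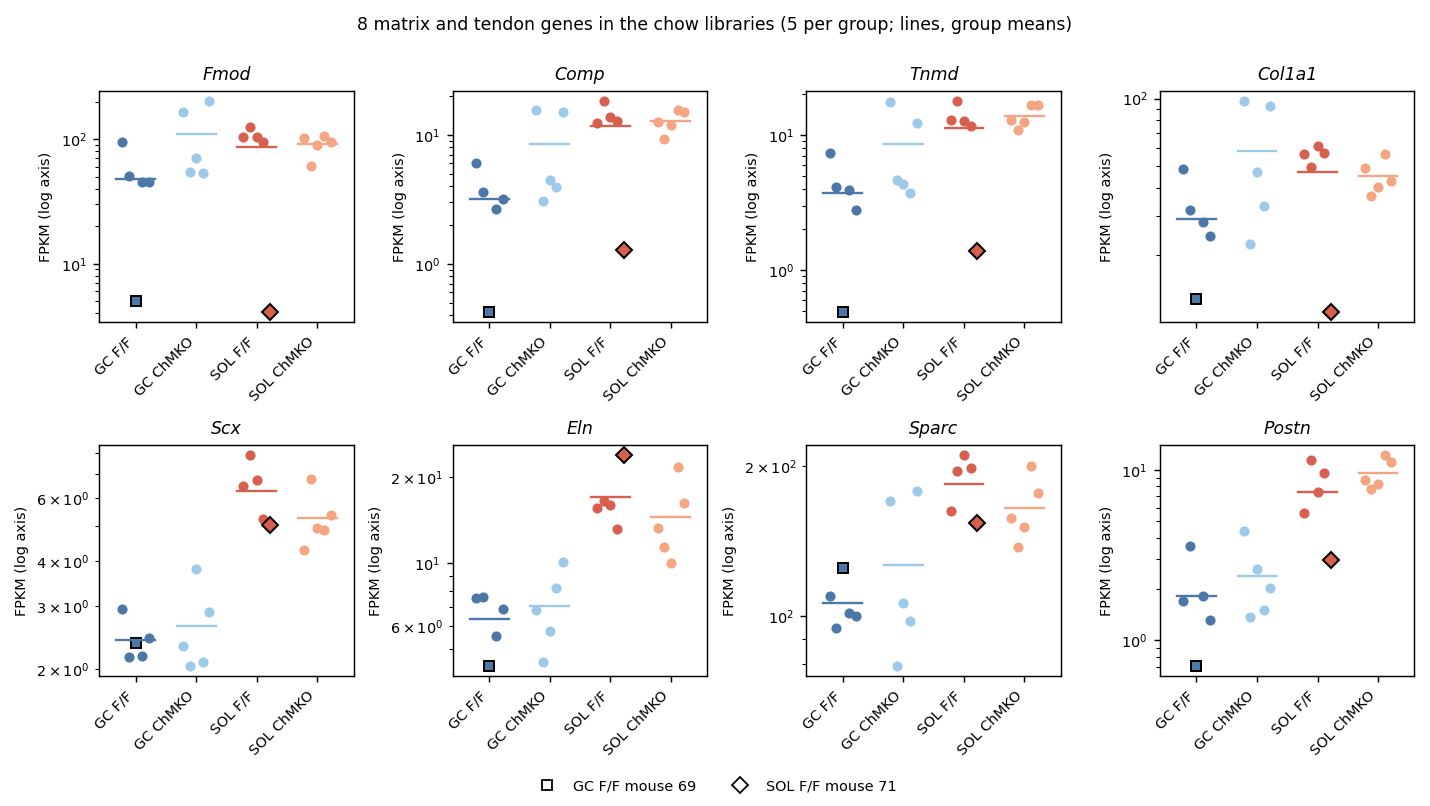
FPKM of 8 members in each chow library, on log axes, by muscle and genotype, with 5 libraries per group and lines at the group means. SOL F/F mouse 71 (diamond) was at 4.13 FPKM of Fmod, 1.29 FPKM of Comp and 1.39 FPKM of Tnmd, below the 4 other SOL F/F libraries, but at 23.8 FPKM of Eln, above them, and GC F/F mouse 69 (square) was the lowest GC library for Fmod, Comp, Tnmd, Col1a1, Eln and Postn.

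Fibrillar collagens were not called in F/F. Col1a1, a chain of collagen type I, the main collagen of tendon (gene28499 in the chow table, chr11:94936224-94953042, plus strand), was at 48.4, 31.7, 12.7, 28.2 and 24.2 FPKM in GC and 56.4, 49.3, 61.6, 57.3 and 11.1 FPKM in SOL, with a log2 fold change of 0.60 (SE 0.46, limma adjusted p = 0.301). Col3a1, the chain of collagen III, was at 35.5, 30.1, 18.4, 35.02 and 36.7 FPKM in GC and 29.8, 38.01, 42.4, 57.7 and 16.6 FPKM in SOL. The 2 muscles overlapped for both genes, and mouse 71 gave the lowest SOL value of each. Among the remaining fibrillar collagens, Col1a2, Col5a1 and Col5a2, the log2 fold changes ran from 0.017 to 0.53. Col6a1 of the collagen VI microfibril was at 22.4, 19.8, 13.3, 21.9 and 22 FPKM in GC and 20.5, 25.9, 26.8, 32.8 and 12.5 FPKM in SOL, and the 3 collagen VI chains had log2 fold changes of -0.047 to 0.20, all uncalled.

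Basement membrane collagens stood otherwise. Col4a1, the first chain of collagen IV, was at 15.01, 14.3, 13.3, 20.6 and 19.1 FPKM in GC and 19.7, 21.2, 31.7, 33.2 and 29.2 FPKM in SOL, with a log2 fold change of 0.67 (SE 0.17, limma adjusted p = 0.00679). Its partner Col4a2, which lies beside Col4a1 on the opposite strand, was at 14.7, 14.4, 14.3, 20 and 19 FPKM in GC and 20.7, 21.8, 33.3, 34.4 and 33.9 FPKM in SOL, with no overlap and a log2 fold change of 0.75 (SE 0.17, limma adjusted p = 0.00358). Here the SOL library of mouse 71 lay among the high SOL values. Col15a1, a collagen of vessel and fibre basement membranes, was not called (0.29, adjusted p = 0.170 by limma). The summed level of 6 endothelial markers moved with these genes, at 39.5 to 78.9 FPKM in GC F/F and 117 to 209 FPKM in SOL F/F, with all 5 markers tested called higher, and its part in the result was not tested.

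Among adhesive and matricellular proteins, Postn, periostin, which binds collagen in loaded connective tissue, was at 1.71, 3.57, 0.709, 1.82 and 1.32 FPKM in GC and 5.54, 11.4, 7.45, 9.55 and 2.94 FPKM in SOL, and rose by 1.54 (SE 0.32, limma adjusted p = 0.00222) on the log2 scale. Only the SOL value of mouse 71 lay within the range of GC. Sparc, the collagen-binding protein osteonectin, was at 109, 94.3, 124, 101 and 99.99 FPKM in GC and 162, 196, 210.1, 198 and 154 FPKM in SOL, without overlap, with a log2 fold change of 0.79 (SE 0.11, limma adjusted p = 2.11e-04). Thbs1, the TGF-beta-activating protein thrombospondin 1, was at 5.85, 7.57, 1.19, 2.56 and 7.52 FPKM in GC and 11.99, 16.7, 10.2, 9.76 and 3.85 FPKM in SOL and was not called (log2 fold change 1.02, adjusted p = 0.0650 by limma). Tnc, tenascin C, a matrix protein of muscle-tendon junctions, was at 1.94, 0.968, 0.112, 0.824 and 0.666 FPKM in GC and 0.842, 1.06, 0.836, 0.867 and 0.253 FPKM in SOL. All 5 SOL values of Tnc lay within the range of GC. Fn1, fibronectin, had a log2 fold change of 0.75 with an adjusted p of 0.0656 by limma.

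The elastic fibre and its crosslinking enzymes included 3 genes that rose. Eln, elastin, was at 7.54, 7.58, 4.37, 5.53 and 6.896 FPKM in GC and 15.5, 16.5, 16, 13.1 and 23.8 FPKM in SOL, without overlap and with the SOL library of mouse 71 the highest, and its log2 fold change was 1.28 (SE 0.17, limma adjusted p = 1.19e-04). Lox and Loxl1, the oxidases that crosslink collagen and elastin, went from 1.101 ± 0.209 to 1.88 ± 0.619 FPKM and from 4.67 ± 0.385 to 6.73 ± 1.799 FPKM (SD, n = 5), with log2 fold changes of 0.43 and 0.42 and limma adjusted p of 0.0361 and 0.0276. By library, Lox was at 1.4, 1.16, 0.823, 1.09 and 1.03 FPKM in GC and 1.92, 2.06, 2.57, 1.99 and 0.871 FPKM in SOL. Loxl1 was at 4.66, 4.79, 4.23, 4.44 and 5.25 FPKM in GC and 5.86, 7.47, 6.08, 9.45 and 4.78 FPKM in SOL. Both genes overlapped between the muscles, with SOL of mouse 71 the lowest SOL library of each.

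Of the small proteoglycans, Bgn, biglycan, was at 18.5, 25.8, 8.14, 16.96 and 15.4 FPKM in GC and 33.6, 53.5, 45.2, 52.2 and 35.5 FPKM in SOL, without overlap, with a log2 fold change of 1.38 (SE 0.25, limma adjusted p = 9.40e-04). Dcn, decorin, the most abundant member of GC F/F, was at 141, 129.8, 61.5, 134 and 146 FPKM in GC and 109.8, 164, 145, 133 and 42.1 FPKM in SOL. The lowest value of each muscle, from mouse 69 in GC and mouse 71 in SOL, was under 84.9 FPKM, the lowest value of any other chow library. Timp1, an inhibitor of matrix metalloproteinases, was at 0.0652, 0.617, 0, 0.134 and 0.199 FPKM in GC and 2.15, 3.003, 1.59, 2.15 and 0.508 FPKM in SOL and rose by 1.21 (SE 0.23, limma adjusted p = 0.00137) on the log2 scale. Col12a1, a collagen that decorates tendon fibrils, was at 1.15, 0.538, 0.117, 0.506 and 0.357 FPKM in GC and 1.41, 2.21, 1.36, 1.42 and 0.319 FPKM in SOL, with a log2 fold change of 0.59 (SE 0.23, limma adjusted p = 0.0483). Both muscles were low in Col12a1, and SOL of mouse 71 again lay inside the GC range. Of the 12 members called, Comp, Col12a1, Lox and Loxl1 were no longer called once libraries were rescaled by their median ratio (limma adjusted p of 0.0812 to 0.188) or with no filter on low genes (0.0529 to 0.0986). With a pseudocount of 0.1 Comp and Col12a1 were uncalled as well (limma adjusted p of 0.0726 and 0.0675), and Comp, Col12a1 and Lox were each uncalled in 8, and Loxl1 in 4, of the 10 tests that left out 1 library.

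Leaving out the SOL library of mouse 71 moved the count in F/F from 12 to 22 members called higher, with all 37 above 0 and a median log2 fold change of 0.63. In that fit 39.4% of all genes were called higher and 12.1% lower. The 10 members added without mouse 71 were Chad, Col14a1, Col1a1, Col1a2, Fbln1, Fn1, Mmp2, Thbs1, Thbs4 and Tnmd. Without that library Tnmd had a log2 fold change of 1.82 (adjusted p = 0.00365), Col1a1 of 1.04 (adjusted p = 0.0131) and Comp of 2.03 (adjusted p = 0.00134). Fmod was not among the 10, at 1.56 (adjusted p = 0.0636). The tenocyte markers that are not members summed to 23.2 to 42.5 FPKM in GC F/F and 48.03 to 73.8 FPKM in SOL F/F, with 2 of the 6 called higher. Red blood cell genes (5 of 5 called higher), smooth muscle markers (3 of 4) and adipocyte markers (2 of 5) moved with SOL too, summing to 61.9 to 123, 33.4 to 60.2 and 7.26 to 83.4 FPKM in GC and 165 to 354, 77.2 to 172 and 32.6 to 189.8 FPKM in SOL. Fibroblast markers that are not members overlapped, summing to 339 to 435 FPKM in GC and 286 to 494 FPKM in SOL. Macrophage markers overlapped as well, at 13.2 to 20.4 and 14.1 to 38.8 FPKM. Muscle fibre markers were lower in SOL, at 31717 to 35517 FPKM against 44249 to 63749 FPKM in GC. The part of these cells in the result was not tested.

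In ChMKO mice, the same contrast called 6 members higher in SOL and 3 lower, where 41% of all genes tested rose and 16.9% fell. Postn, Eln, Bgn, Scx and Timp1, all called in F/F, were called here too, and Mfap5 joined them. Col6a3, Tnc and Timp2 fell. Over the 37 members tested the median log2 fold change was 0.17, against 0.15 over all genes. Without the GC library of ChMKO mouse 59 the count was 14, with 12 higher and 2 lower, where 41% of all genes were called higher and 15.9% lower. With the library number as a block it was 14 too, with 11 higher and 3 lower, where 39.5% of all genes were higher and 16.1% lower. The block added Col4a1, Col4a2, Fn1, Thbs1 and Tnmd, which were uncalled without it. Markers of other cells were called higher in SOL ChMKO as well: 5 of 5 of endothelium, 5 of 5 of red blood cells, 4 of 4 of smooth muscle, 4 of 5 of Schwann cells and 3 of 5 of adipocytes. Endothelial markers summed to 44.2 to 66.9 FPKM in GC and 98.98 to 122 FPKM in SOL, and smooth muscle markers to 37.7 to 50.9 and 70.8 to 117 FPKM. Fibroblast markers that are not members overlapped between the muscles, at 298 to 514 FPKM in GC and 323 to 436 FPKM in SOL. Tenocyte markers that are not members (33.4 to 84.3 and 58.5 to 74.8 FPKM) and macrophage markers (17.3 to 31.8 and 16.3 to 21.6 FPKM) overlapped too. Muscle fibre markers were lower in SOL, at 29872 to 33095 FPKM against 50899 to 55095 FPKM. The part of these cells in the result was not tested.

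Postn in ChMKO mice 59, 60, 61, 72 and 74 was at 4.37, 1.36, 2.62, 1.502 and 2.01 FPKM in GC and 8.66, 7.69, 8.26, 12.2 and 11.2 FPKM in SOL, with no overlap and a log2 fold change of 1.698 (SE 0.21, limma adjusted p = 3.83e-05). Scx was at 2.32, 2.05, 3.81, 2.099 and 2.88 FPKM in GC and 4.297, 6.78, 4.96, 4.89 and 5.38 FPKM in SOL, and Bgn at 39.1, 16.1, 21.1, 18.9 and 24.98 FPKM and 42.5, 42.7, 40.01, 50.6 and 41.7 FPKM. Their log2 fold changes were 0.80 and 0.89, with limma adjusted p of 4.55e-04 and 0.00176, and neither overlapped. Timp1 was at 1.77, 0.133, 1.41, 0.258 and 0.848 FPKM in GC and 2.26, 2.26, 1.98, 3.23 and 2.16 FPKM in SOL, without overlap, and rose by 0.92 (SE 0.23, limma adjusted p = 0.00519) on the log2 scale. Eln was at 6.87, 4.52, 5.77, 8.17 and 10.1 FPKM in GC and 13.2, 11.4, 10.01, 21.7 and 16.2 FPKM in SOL, with a log2 fold change of 0.93 (SE 0.22, limma adjusted p = 0.00327). Mfap5, a microfibril protein, was at 8.89, 6.16, 5.89, 7.64 and 6.5 FPKM in GC and 8.53, 11.4, 10.9, 13.3 and 10.2 FPKM in SOL, with a log2 fold change of 0.57 (SE 0.12, limma adjusted p = 0.00201). For Eln and Mfap5 the highest GC library overlapped the lowest SOL library.

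The 3 members that fell in ChMKO had their highest values in GC of mice 59 and 74. Tnc was at 3.102, 1.59, 0.869, 0.864 and 3.94 FPKM in GC and 0.772, 0.538, 0.748, 1.01 and 0.863 FPKM in SOL, with a log2 fold change of -0.67 (SE 0.25, limma adjusted p = 0.0401). It was uncalled in 8 of the 10 tests that left out 1 library, among them those without GC of mouse 59 or of mouse 74. Col6a3, the largest chain of collagen VI, was at 7.497, 5.13, 3.69, 6.003 and 7.35 FPKM in GC and 3.57, 3.25, 3.42, 4.901 and 3.76 FPKM in SOL, with a log2 fold change of -0.51 (SE 0.16, limma adjusted p = 0.0152). Timp2, a second metalloproteinase inhibitor, was at 53.2, 30.99, 29.1, 31.02 and 45.4 FPKM in GC and 26.2, 21.3, 24.7, 32.7 and 24.3 FPKM in SOL, with a log2 fold change of -0.51 (SE 0.17, limma adjusted p = 0.0227). All 3 overlapped between the muscles, and Timp2 was uncalled without GC of mouse 74 or SOL of mouse 60. With no filter on low genes Tnc and Timp2 were uncalled (limma adjusted p of 0.0873 and 0.0509).

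The remaining members with values by library in ChMKO were not called. Fmod was at 166, 54.1, 69.9, 52.99 and 201 FPKM in GC and 103, 61.1, 88.8, 106 and 94.8 FPKM in SOL, Comp at 15.6, 3.09, 4.48, 3.93 and 14.98 FPKM and 12.5, 9.25, 11.9, 15.5 and 15.04 FPKM. Tnmd was at 17.5, 4.66, 4.36, 3.7 and 12.2 FPKM in GC and 12.9, 10.9, 12.5, 16.5 and 16.6 FPKM in SOL. The SOL values of all 3 tendon genes were close together, and the GC values were split, with mice 59 and 74 the highest. Col1a1 was at 97.5, 22.3, 46.98, 33.03 and 92.5 FPKM in GC and 48.8, 36.8, 40.1, 56.7 and 42.6 FPKM in SOL, and Col3a1 at 57.03, 26.8, 22.3, 34.2 and 35.7 FPKM and 23.4, 25.8, 30.5, 41.5 and 29.8 FPKM. Col6a1 was at 35.1, 17.5, 17.9, 22.6 and 31.6 FPKM in GC and 22.6, 19.4, 20.3, 24.7 and 22.5 FPKM in SOL, and Dcn at 231, 148, 84.9, 109.8 and 184 FPKM and 108, 92.8, 121, 157 and 137 FPKM. GC of mouse 59 was the highest GC library for each of these genes but Fmod. Thbs1 was at 15.4, 15.3, 8.85, 7.33 and 7.12 FPKM in GC and 15.6, 15.6, 16.2, 17 and 11.2 FPKM in SOL, with an adjusted p of 0.0597 by limma.

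**Figure D2:**
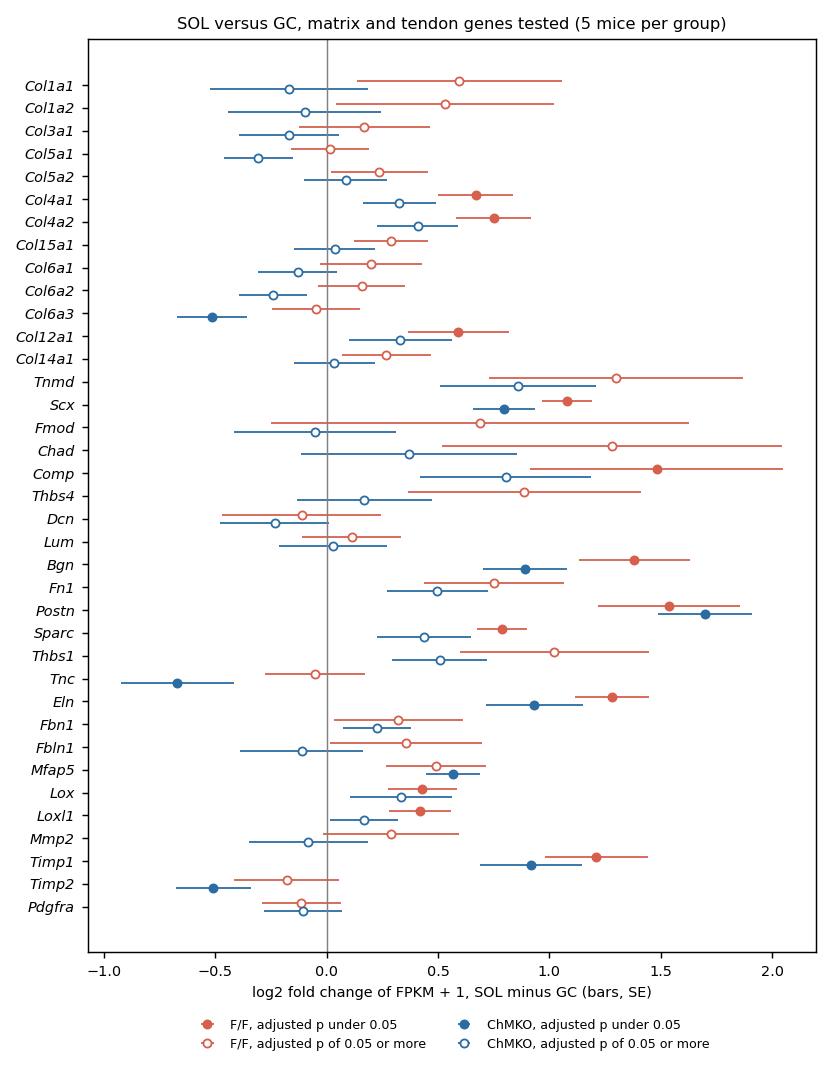
Log2 fold change of FPKM + 1 between SOL and GC (points, with SE as bars) for the 37 members tested in F/F (red) and ChMKO (blue), with filled points for an adjusted p under 0.05. Postn, Bgn, Scx, Eln and Timp1 are filled and to the right of 0 in both genotypes, and Col6a3, Tnc and Timp2 are filled to the left in ChMKO.

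Other genes of the matrix pathway, from lists that hold none of the 38 members, gave the following counts. Of 17 collagen-processing genes tested, 10 rose and 1 fell in SOL of F/F mice, and 6 rose and 2 fell in ChMKO, against 37.9% of all genes rising in F/F and 41% in ChMKO. Of 14 genes of the TGF-beta pathway, 8 rose and 1 fell in F/F, and 7 rose and 1 fell in ChMKO. Among 10 other basement membrane genes, 6 rose in F/F, including Lama2 and Hspg2, and 4 rose and 1 fell in ChMKO. Among 8 other proteases and inhibitors, 3 rose in F/F and 2 in ChMKO. In ChMKO the shares of the collagen-processing, basement membrane and protease lists that rose were below that of all genes.

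Whether the muscle difference itself differed between the genotypes was tested by an interaction over all 20 chow libraries with the library number as a random effect. None of the 37 members was called by limma, 0 had an unadjusted p under 0.05, and the smallest p was that of Col6a3, with a difference of -0.47 on the log2 scale (SE 0.26, adjusted p = 0.815). Without the library number the smallest adjusted p was 0.892, with 0 members called. The members called in 1 genotype and not in the other were therefore not shown to differ between the genotypes.

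The second question was whether loss of ChREBP in muscle fibres moved these genes. In chow-fed mice none of the 37 members tested was called in GC or in SOL by limma. In GC, 34 of the 37 had a higher mean in ChMKO, with a median log2 fold change of 0.28 against 0.0061 over all genes, 3 members had an unadjusted p under 0.05 (4.63% of all genes), and the smallest adjusted p was 1.00. In SOL, 21 were above and 16 below 0, the median was 0.026, 0 had an unadjusted p under 0.05 (9.74% of all genes), and the smallest adjusted p was 0.526. These are the libraries of the muscle comparison, set against each other the other way. Marker lists lay to 1 side in GC as well, with no marker called. The 6 tenocyte markers that are not members were all above 0 (median 0.79), summing to 23.2 to 42.5 FPKM in F/F and 33.4 to 84.3 FPKM in ChMKO. All 5 macrophage and all 4 adipocyte markers tested were above 0 (medians 0.29 and 0.38), and all 5 Schwann cell markers were below 0 (median -0.97), summing to 17.8 to 48.7 FPKM in 4 F/F libraries, 446 FPKM in that of F/F mouse 69, the library lowest for 33 of 36 members, and 13.5 to 33.8 FPKM in ChMKO. The part of these cells in the values of the members was not tested.

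The 2 members with the smallest p in GC were Thbs1 and Thbs4. Thbs1 was at 5.85, 7.57, 1.19, 2.56 and 7.52 FPKM for F/F and 15.4, 15.3, 8.85, 7.33 and 7.12 FPKM for ChMKO, with a log2 fold change of 1.103 (SE 0.38, limma adjusted p = 1.00). Thbs4 was at 40.5, 24.3, 6.26, 20.6 and 25.6 FPKM for F/F and 87.9, 27.7, 35.7, 29.9 and 73.7 FPKM for ChMKO, with a log2 fold change of 1.12 (SE 0.46, limma adjusted p = 1.00). The genotypes overlapped for both, with the GC library of F/F mouse 69 the lowest of the 10 for each. In SOL the smallest p values belonged to Thbs1, with means of 10.5 ± 4.62 FPKM for F/F and 15.1 ± 2.28 FPKM for ChMKO (SD, n = 5, log2 fold change 0.59, limma adjusted p = 0.526), and to Scx, with means of 6.27 ± 1.16 FPKM for F/F and 5.26 ± 0.931 FPKM for ChMKO (log2 fold change -0.21, limma adjusted p = 0.573).

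In GC of the hypoxia and diet experiment, none of the members tested was called between ChMKO and F/F within Norm (38 tested), Hypo (38) or HFrD (36), by limma or by voom on recovered reads. At an unadjusted p under 0.05 there were 3, 1 and 2 members, where the share of all genes was 11.1%, 5.27% and 7.36%. In Norm, 36 of 38 were above 0 with a median of 0.40 (0.048 over all genes), in Hypo 34 of 38 with a median of 0.25 (0.082), and in HFrD 21 of 36 with a median of 0.037 (-0.0078). The smallest adjusted p was 0.419 in Norm, 0.532 in Hypo and 0.642 in HFrD. In Norm all 6 tenocyte markers that are not members and all 6 endothelial markers were above 0 too (medians 0.45 and 0.35), as were all 5 red blood cell genes (0.59), while all 5 adipocyte and all 5 Schwann cell markers were below 0 (-0.51 and -0.21), with none called. The tenocyte markers summed to 51.99 to 107 FPKM in F/F and 71.9 to 129 FPKM in ChMKO and the endothelial markers to 45.1 to 104 and 89.4 to 103 FPKM. In Hypo all 8 fibroblast markers that are not members, all 5 macrophage and all 5 red blood cell markers were above 0 (medians 0.32, 0.39 and 0.62), with none called. The fibroblast markers summed to 288 to 575 FPKM in F/F and 422 to 628 FPKM in ChMKO, and the part of these cells in the results was not tested.

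The 2 members with the smallest p in each condition were Scx and Chad in Norm, Col14a1 and Mfap5 in Hypo, and Fn1 and Col14a1 in HFrD. In Norm, Scx was at 1.73, 1.58, 0.910 and 0.814 FPKM in F/F mice c368, c369, c397 and c401 and at 2.19, 2.15, 2.19 and 1.51 FPKM in ChMKO mice KO_370, KO_374, KO_375 and KO_380, with a log2 fold change of 0.43. Chad was at 16.9, 27.2, 13.6 and 11.2 FPKM for F/F and 23, 21.2, 31.8 and 28.05 FPKM for ChMKO, with a log2 fold change of 0.63. For both genes 1 or more F/F libraries lay within the ChMKO range. In Hypo, Col14a1, a fibril-associated collagen, was at 2.44, 1.396, 2.08 and 1.65 FPKM in F/F mice c341, c348, c360 and c361 and 2.54, 2.12, 2.87 and 3.38 FPKM in ChMKO mice c332, c333, c340 and c345, with a log2 fold change of 0.37. Mfap5 in Hypo was at 6.47, 6.25, 3.52 and 3.705 FPKM and 6.97, 4.78, 8.301 and 8.35 FPKM, with a log2 fold change of 0.45. Mice c341 and c348 in F/F and mouse c333 in ChMKO lay in the shared range of Mfap5. In HFrD, Fn1 was at 7.05, 6.83, 8.43 and 7.11 FPKM in F/F mice C292, C294, C301 and C310 and 9.64, 8.08, 7.69 and 10.4 FPKM in ChMKO mice C291, C293, C299 and C309, with a log2 fold change of 0.25. Col14a1 in HFrD was at 0.902, 1.22, 1.44 and 1.05 FPKM and 1.61, 1.69, 1.21 and 1.41 FPKM, with a log2 fold change of 0.21. The genotypes overlapped for all of these genes.

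After 2 weeks of hypoxia, 1 member was called in ChMKO and 0 in F/F, where voom also called 0. In ChMKO mice Col15a1, the basement membrane collagen XV of capillaries and fibres (gene9025 in the chow table, chr4:47207627-47313165, plus strand), fell from 12.5, 10.4, 12.6 and 10.3 FPKM in Norm to 5.48, 4.94, 6.202 and 5.75 FPKM in Hypo. All 4 Hypo libraries were below all 4 Norm libraries, and the log2 fold change was -0.91 (SE 0.10, limma adjusted p = 0.00841). It was the 1 member called lower of 38 tested, where 0.637% of all genes fell, and it was also the 1 member called by voom and without each library in turn. In F/F mice Col15a1 was at 11.7, 13.7, 4.05 and 6.01 FPKM in Norm and 6.87, 4.01, 5.69 and 4.06 FPKM in Hypo, with a log2 fold change of -0.58 (SE 0.34, limma adjusted p = 1.00). The Norm F/F values of Col15a1 were split, with mice c368 and c369 above every Hypo library and mice c397 and c401 within their range.

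The other members in hypoxia were uncalled in both genotypes. In ChMKO, 34 of the 38 were below 0 with a median log2 fold change of -0.42 (-0.030 over all genes), and 13 had an unadjusted p under 0.05, as had 15.1% of all genes. In F/F, 29 of 38 were below 0 with a median of -0.21 (-0.062 over all genes), 0 had an unadjusted p under 0.05 (3.83% of all genes), and the smallest p values belonged to Col5a1 (log2 fold change -0.57) and Col3a1 (-0.85), both with a limma adjusted p of 1.00. Col5a1 was at 6.01, 10.9, 3.58 and 4.76 FPKM in Norm and 3.94, 4.02, 3.43 and 3.13 FPKM in Hypo of F/F mice. The Hypo values lay close together at the low end of Norm. Of the fibroblast markers that are not members, 7 of 8 in ChMKO and 8 of 8 in F/F were below 0 in Hypo (medians -0.21 and -0.27), and all 5 red blood cell genes were above 0 in both genotypes (medians 0.90 and 0.72), with none called, and their part in the result was not tested. The test of whether the hypoxia effect differed between genotypes called 0 of 38 members by limma, with 0 at an unadjusted p under 0.05 and Tnc first in order (difference -0.46 on the log2 scale, SE 0.31, adjusted p = 1.00).

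The Norm groups, which also serve the diet comparison, were wide. Where a pair of value lists is given below, Norm comes first. Col1a1 was at 42.5, 115, 21.9 and 27.2 FPKM in Norm F/F and 65.2, 27.96, 24.4 and 22.9 FPKM in Hypo F/F, and at 153, 47.7, 57.6 and 58.7 FPKM in Norm ChMKO and 33.1, 60.9, 44.6 and 61 FPKM in Hypo ChMKO. Col3a1 was at 31.3, 84.9, 18.2 and 24.9 FPKM in Norm F/F and 20.1, 16.2, 17.9 and 18.2 FPKM in Hypo F/F, and at 90.8, 26.1, 36.8 and 35.7 FPKM and 21.7, 20.5, 19.6 and 38.4 FPKM in the ChMKO groups. Col6a1 was at 27.5, 45.7, 14.01 and 18.2 FPKM and 25.9, 20, 17.3 and 15.3 FPKM in F/F, and at 49.8, 27.6, 35.7 and 29.8 FPKM and 20.2, 22.1, 24.2 and 32.4 FPKM in ChMKO. The highest Norm value of each collagen came from mouse c369 in F/F and mouse KO_370 in ChMKO.

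The tendon genes were spread over both Norm and Hypo. Fmod was at 136, 199, 76 and 81.7 FPKM in Norm F/F and 217, 134, 71.97 and 71.4 FPKM in Hypo F/F, and at 213, 159, 176 and 181 FPKM and 64.8, 159.7, 173 and 171 FPKM in ChMKO. Comp was at 7.03, 16.4, 5.86 and 5.18 FPKM and 14.3, 10.1, 4.78 and 5.71 FPKM in F/F, and at 13.9, 8.65, 9.61 and 11.3 FPKM and 4.04, 13, 12.7 and 11.6 FPKM in ChMKO. Tnmd was at 19.5, 37.2, 10.6 and 11.5 FPKM and 30.2, 16.1, 10.6 and 8.55 FPKM in F/F, and at 47.4, 25.1, 20.7 and 25.1 FPKM and 10.7, 20.8, 16.2 and 21.1 FPKM in ChMKO. The Hypo ChMKO library of mouse c332 was the lowest of its group for Fmod, Comp and Tnmd, and the Hypo F/F library of mouse c341 was the highest of its group for 33 of 38 members, against 44.4% of all genes.

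Decorin, the matricellular genes and Timp1 overlapped as widely. Dcn was at 157, 137, 117 and 121 FPKM and 122, 139, 93.4 and 96.4 FPKM in F/F, and at 156, 119, 153 and 121 FPKM and 85.7, 127, 100.4 and 113 FPKM in ChMKO. Thbs1 was at 6.12, 33.7, 4.26 and 4.34 FPKM and 18.9, 10.4, 4.52 and 5.49 FPKM in F/F, and at 14.3, 6.22, 7.94 and 9.34 FPKM and 6.49, 10.5, 17.5 and 13.4 FPKM in ChMKO. The 3 other Norm F/F libraries of Thbs1 were well below that of mouse c369. Postn was at 1.95, 5.54, 2.25 and 2.004 FPKM and 1.59, 0.785, 2.74 and 2.26 FPKM in F/F, and at 6.26, 1.84, 1.75 and 2.12 FPKM and 0.857, 1.32, 0.689 and 2.95 FPKM in ChMKO. Tnc was at 2.33, 3.63, 1.203 and 1.65 FPKM and 2.58, 1.64, 1.69 and 1.71 FPKM in F/F, and at 5.01, 3.27, 3.13 and 2.42 FPKM and 1.42, 1.71, 2.195 and 2.701 FPKM in ChMKO. Timp1 was at 0.549, 3.34, 0.249 and 0.415 FPKM and 1.59, 0.508, 0.830 and 0.887 FPKM in F/F, and at 3.34, 2.21, 1.24 and 1.32 FPKM and 0.775, 0.927, 0.905 and 3.697 FPKM in ChMKO. The Norm and Hypo ranges overlapped for all of these genes in both genotypes.

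**Figure D3:**
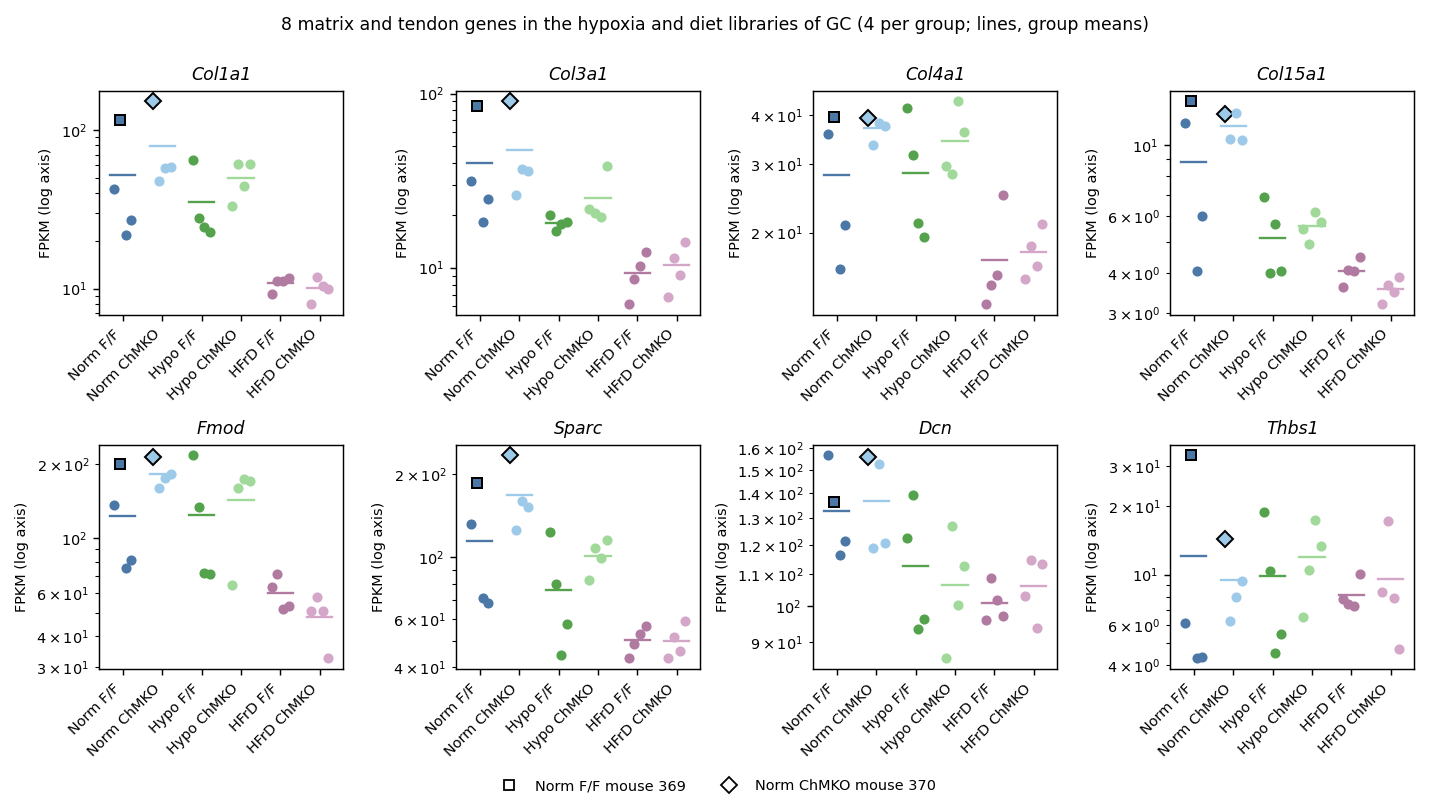
FPKM of 8 members in each GC library of the hypoxia and diet experiment, on log axes, with 4 libraries per group and lines at the group means. The 8 HFrD libraries of Col1a1 lie between 7.95 and 11.9 FPKM, below all 16 Norm and Hypo libraries, and Norm F/F mouse c369 (square) and Norm ChMKO mouse KO_370 (diamond) are the highest of their groups for Col1a1, Col3a1, Fmod, Sparc and Thbs1.

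Of the 13 comparisons, the members had their largest median difference between HFrD and Norm in ChMKO mice. The Norm libraries are those already set against Hypo. In ChMKO mice 32 of the 38 members fell and 0 rose, where 44.6% of all genes tested fell. All 5 fibrillar collagens, all 3 basement membrane collagens, all 3 collagen VI chains, both fibril-associated collagens, all 3 small proteoglycans and all 3 genes of proteolysis were among the 32, with 6 of the 7 tendon genes. The median log2 fold change was -1.06 for the members and -0.17 for all genes tested. For 31 members all 4 HFrD libraries were below all 4 Norm libraries, as was true of 39.2% of all genes. The 6 members not called were Mkx, Postn, Thbs1, Eln, Lox and Pdgfra, and 2 members lay above 0 once the shift of all genes was removed by rescaling.

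The 3 members with the largest fold changes were fibrillar collagens. Col1a1 was at 153, 47.7, 57.6 and 58.7 FPKM in Norm and 7.95, 11.9, 10.4 and 9.93 FPKM in HFrD, and fell from a mean of 79.3 ± 49.4 to 10.04 ± 1.63 FPKM (SD, n = 4), a log2 fold change of -2.71 (SE 0.32, limma adjusted p = 8.51e-05). Col1a2, the other chain of collagen I, was at 111, 42.7, 51.5 and 50.3 FPKM in Norm and 10.2, 13.1, 12.2 and 11.6 FPKM in HFrD, a log2 fold change of -2.24 (SE 0.25, limma adjusted p = 7.03e-05). Col3a1 was at 90.8, 26.1, 36.8 and 35.7 FPKM in Norm and 6.74, 11.4, 9.09 and 14.1 FPKM in HFrD, a log2 fold change of -1.97 (SE 0.35, limma adjusted p = 9.95e-04). No HFrD library came near the lowest Norm library of any of the 3. Col5a1 and Col5a2, which regulate fibril width, had log2 fold changes of -1.33 and -0.997.

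Collagens of the other classes fell as well. The basement membrane collagens Col4a1, Col4a2 and Col15a1 had log2 fold changes of -1.03, -0.91 and -1.44, and Col15a1 had the smallest adjusted p of all members (limma adjusted p = 8.71e-07). The collagen VI chains ran from -1.05 to -1.56, with Col6a1 at 49.8, 27.6, 35.7 and 29.8 FPKM in Norm and 9.42, 11.8, 11.6 and 12.03 FPKM in HFrD. Col12a1 had a log2 fold change of -0.92. Col14a1 was at 5.99, 2.42, 3.19 and 2.7 FPKM in Norm and 1.61, 1.69, 1.21 and 1.41 FPKM in HFrD, a log2 fold change of -0.83 (SE 0.20, limma adjusted p = 0.00533). None of these 8 collagens overlapped between Norm and HFrD.

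Of the tendon genes, Fmod was at 213, 159, 176 and 181 FPKM in Norm and 50.9, 57.8, 50.6 and 32.6 FPKM in HFrD, a log2 fold change of -1.93 (SE 0.16, limma adjusted p = 1.23e-05). Chad (gene28484 in the chow table, chr11:94565074-94569127, plus strand) was at 23, 21.2, 31.8 and 28.05 FPKM in Norm and 7.12, 9.89, 7.74 and 2.51 FPKM in HFrD, a log2 fold change of -1.89 (SE 0.31, limma adjusted p = 6.21e-04). Chad shares bases with Acsf2 on the opposite strand, which averaged 1.88 FPKM in the chow libraries against 27.1 FPKM for Chad. Tnmd was at 47.4, 25.1, 20.7 and 25.1 FPKM in Norm and 9.22, 10.1, 7.93 and 6.73 FPKM in HFrD, and Comp at 13.9, 8.65, 9.61 and 11.3 FPKM and 4.34, 4.697, 3.93 and 2.64 FPKM. The HFrD libraries lay below the Norm libraries for both, and Tnmd, Comp and Thbs4 had log2 fold changes of -1.63, -1.27 and -1.51. Scx was at 2.19, 2.15, 2.19 and 1.51 FPKM in Norm and 0.954, 0.690, 1.204 and 0.456 FPKM in HFrD, a log2 fold change of -0.73 (SE 0.13, limma adjusted p = 0.00115). Mkx was low in both groups, at 0.685 ± 0.286 FPKM in Norm and 0.436 ± 0.152 FPKM in HFrD (SD, n = 4), and was not called.

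Among the remaining roles, Sparc was at 235, 125, 159.9 and 152 FPKM in Norm and 43.1, 51.6, 45.8 and 58.9 FPKM in HFrD, a log2 fold change of -1.703 (SE 0.18, limma adjusted p = 4.03e-05). Dcn had the smallest change of the members called, at 156, 119, 153 and 121 FPKM in Norm and 103, 115, 93.7 and 113 FPKM in HFrD, a log2 fold change of -0.36 (SE 0.11, limma adjusted p = 0.0165). Mfap5 was at 8.09, 5.33, 7.397 and 5.58 FPKM in Norm and 3.898, 4.796, 4.67 and 5.59 FPKM in HFrD, a log2 fold change of -0.40 (SE 0.13, limma adjusted p = 0.0256). Dcn and Mfap5 were the 2 members no longer called after rescaling by the median ratio, and by voom, and Mfap5 was also uncalled without mouse KO_370 or KO_375 of Norm and without mouse C291 or C299 of HFrD. Fbn1, fibrillin 1 of the elastic microfibril, was at 8.53, 7.5, 8.96 and 7.46 FPKM in Norm and 2.77, 4.61, 3.81 and 4.57 FPKM in HFrD, a log2 fold change of -0.90 (SE 0.13, limma adjusted p = 2.46e-04). Loxl1 was at 6.102, 3.71, 5.61 and 4.76 FPKM in Norm and 1.67, 2.18, 2.31 and 3.33 FPKM in HFrD, a log2 fold change of -0.85 (SE 0.16, limma adjusted p = 0.00157). The other enzyme of crosslinking, Lox, was at 6.94 ± 2.29 FPKM in Norm and 6.28 ± 0.850 FPKM in HFrD (SD, n = 4, log2 fold change -0.090, limma adjusted p = 0.667).

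The matricellular proteins were divided. Tnc was at 5.01, 3.27, 3.13 and 2.42 FPKM in Norm and 1.01, 1.3, 0.909 and 0.943 FPKM in HFrD (log2 fold change -1.101), and Fn1 had a log2 fold change of -1.06, both called. Thbs1 was at 14.3, 6.22, 7.94 and 9.34 FPKM in Norm and 8.38, 17.2, 7.85 and 4.72 FPKM in HFrD, a log2 fold change of -0.061 (SE 0.34, limma adjusted p = 0.882). Postn was at 6.26, 1.84, 1.75 and 2.12 FPKM in Norm and 2.35, 1.83, 1.53 and 1.73 FPKM in HFrD, a log2 fold change of -0.36 (SE 0.28, limma adjusted p = 0.284). Thbs1 and Postn overlapped between Norm and HFrD, and the high Postn value was that of mouse KO_370. Timp1 was at 3.34, 2.21, 1.24 and 1.32 FPKM in Norm and 0.196, 0, 0.314 and 0.573 FPKM in HFrD (log2 fold change -1.22). Mmp2, the gelatinase that degrades denatured collagen and collagen IV, had a log2 fold change of -1.38 and Timp2 of -1.07. Pdgfra, the PDGF receptor that marks muscle fibroblasts and their progenitors, was at 5.75 ± 1.05 FPKM in Norm and 4.41 ± 0.729 FPKM in HFrD (SD, n = 4) and missed the threshold with a limma adjusted p of 0.0550.

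In F/F mice all 38 members also had a log2 fold change below 0 in HFrD (37 after rescaling), but none was called by limma, where 0% of all genes rose and 0% fell at the same threshold. At an unadjusted p under 0.05 there were 23 members and 2531 of 10707 genes (23.6%), and voom also called 0 members. For 17 members the HFrD libraries were all below the Norm libraries, against 13.3% of all genes. The median log2 fold change was -0.75 for the members and -0.10 for all genes, and without the Norm library of mouse c369 the median of the members was -0.48, with 36 of the 37 then tested below 0 and Thbs1 above 0. The F/F and ChMKO comparisons use different mice and share no library.

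The values of F/F showed low and close HFrD libraries against spread Norm libraries. Col1a1 was at 42.5, 115, 21.9 and 27.2 FPKM in Norm and 9.28, 11.1, 11.2 and 11.7 FPKM in HFrD, a log2 fold change of -1.85 (SE 0.44, limma adjusted p = 0.145). Col1a2 was at 37.9, 84.9, 23.4 and 24.5 FPKM in Norm and 11.4, 13.2, 12.4 and 12.7 FPKM in HFrD, a log2 fold change of -1.5 (SE 0.35, limma adjusted p = 0.145). Without the Norm library of mouse c369 these were -1.37 (adjusted p = 0.0790) and -1.11 (adjusted p = 0.0736) by limma. No HFrD library reached the lowest Norm library for either gene.

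Col3a1 was at 6.15, 8.65, 10.2 and 12.3 FPKM in HFrD of F/F mice, Col6a1 at 10.02, 11.5, 12.2 and 10.5 FPKM and Dcn at 96.1, 109, 102 and 97.1 FPKM. Fmod was at 63.6, 71.8, 51.9 and 52.95 FPKM, Tnmd at 10.99, 10.9, 7.39 and 7.88 FPKM and Comp at 4.63, 4.88, 4.07 and 3.64 FPKM. Of these, Tnmd overlapped the Norm F/F libraries and the others did not. Timp1 was at 0.254, 0.432, 0.117 and 0.569 FPKM, Tnc at 1.38, 1.41, 1.34 and 0.910 FPKM, Postn at 1.86, 1.602, 1.74 and 1.98 FPKM and Thbs1 at 7.797, 7.43, 7.26 and 10.1 FPKM. These 4 overlapped Norm, and Thbs1, with a log2 fold change of -0.0080, was the nearest to 0 of all 38 with every library kept. Without the Norm library of mouse c369, the highest for Thbs1, it was at 0.63 (adjusted p = 0.143) by limma.

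The difference between the 2 diet effects was tested over the 16 Norm and HFrD libraries. By limma 0 of 38 members were called, 3 had an unadjusted p under 0.05, and Fmod was first, with a difference of -1.002 on the log2 scale (SE 0.36, adjusted p = 0.451). Without the Norm F/F library of mouse c369, 6 members were called, all with the larger decrease in ChMKO, namely Fmod, Thbs4, Timp1, Comp, Tnc and Col1a2, where 10.2% of all genes were called (4.24% with the value lower in ChMKO). The difference was then -1.27 (adjusted p = 0.0354) for Fmod and -1.17 (adjusted p = 0.0354) for Thbs4 by limma. These calls exist only without that library, and with all libraries a genotype difference in the diet effect was not shown.

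Marker lists for other cells moved with HFrD in the same libraries. Tenocyte markers that are not members, such as Kera and Prg4, summed to 71.9 to 129 FPKM in Norm ChMKO and 42.9 to 52.2 FPKM in HFrD ChMKO, with 6 of 6 called lower. Fibroblast markers such as Dpt and Clec3b summed to 493 to 749 and 317 to 429 FPKM, with 7 of 8 called lower, and endothelial markers to 89.4 to 103 and 46.1 to 57.4 FPKM, with 6 of 6 called lower. Red blood cell genes summed to 217 to 407 and 62.3 to 191 FPKM (5 of 5 lower) and macrophage genes to 17.8 to 40.1 and 14.7 to 20.6 FPKM (4 of 5 lower). Muscle fibre markers summed to 44965 to 53081 and 39083 to 40325 FPKM, with 2 of 7 higher and 2 lower. Of the myoblast and myotube markers, all 3 tested (Des, Myod1 and Myog) were called lower, with a median log2 fold change of -1.09, and the list summed to 741 to 872 FPKM in Norm and 621 to 666 FPKM in HFrD. Of the smooth muscle markers 1 of 3 was called lower, of the Schwann cell markers 1 of 5 higher and 1 lower, and of the adipocyte markers 1 of 5 higher. In F/F mice all 6 tenocyte, all 8 fibroblast and all 6 endothelial markers were below 0 in HFrD (medians -0.43, -0.56 and -0.38), with none called. Red blood cell genes of F/F mice summed to 103 to 387 FPKM in Norm and 76.2 to 99.1 FPKM in HFrD. Their macrophage genes summed to 16.2 to 46.8 and 11.2 to 15.5 FPKM. None of these markers was at 0 in a whole group, and the part of these cells in the result was not tested.

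Other genes of the matrix pathway in HFrD of ChMKO mice were counted in the same way. Of 17 collagen-processing genes tested, 16 fell and 0 rose (44.6% of all genes fell), among them the collagen chaperone Serpinh1 and the prolyl hydroxylase subunits P4ha1, P4ha2 and P4hb. Of 14 genes of the TGF-beta pathway 7 fell and 1 rose, of 10 other basement membrane genes 7 fell, and of 9 other proteases and inhibitors 2 fell and 2 rose. In F/F mice 0 genes of these lists were called, with median log2 fold changes of -0.25, -0.12, -0.25 and -0.29 in the same order.

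**Figure D4:**
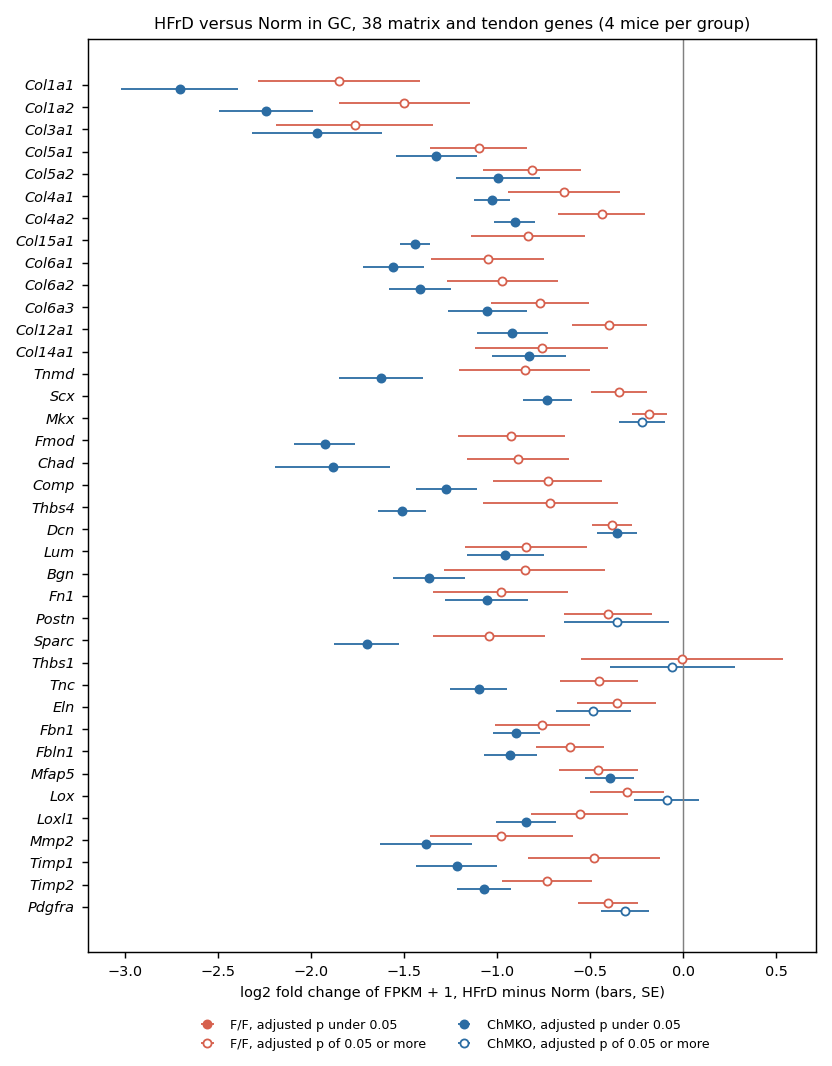
Log2 fold change of FPKM + 1 between HFrD and Norm in GC (points, with SE as bars) for the 38 members in F/F (red) and ChMKO (blue), with filled points for an adjusted p under 0.05. All points lie to the left of 0, from -2.71 for Col1a1 in ChMKO to -0.0080 for Thbs1 in F/F, and 32 points of ChMKO are filled. After rescaling, 1 member in F/F and 2 in ChMKO lay to the right of 0, and without Norm F/F mouse c369 Thbs1 in F/F lay at 0.63.

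Between AAV-ChREBP and AAV-GFP none of the 37 members tested was called by limma, 1 had an unadjusted p under 0.05 (2.91% of all genes), and the smallest adjusted p was 1.00. Of the 37, 34 were above 0 and 3 below, with a median log2 fold change of 0.12 against 0.025 over all genes. Library number, shared by the 2 groups, was a block in an alternative fit, which also called 0 members. That AAV libraries of 1 number form a pair is not stated in the labels. All 6 tenocyte markers that are not members (median 0.11), all 5 macrophage (0.24), all 5 Schwann cell (0.098) and all 4 adipocyte markers tested (0.58) were above 0, with none called. The adipocyte markers summed to 14.1 to 36.4 FPKM in AAV-GFP and 21.8 to 53.04 FPKM in AAV-ChREBP, and the part of these cells in the result was not tested.

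The members with the smallest p were Mfap5 and Fbln1, both uncalled. Mfap5 was at 7.33, 8.51, 6.16, 6.12 and 6.32 FPKM in AAV-GFP libraries 1, 3, 4, 7 and 8 and at 8.297, 8.65, 7.45, 7.51 and 8.601 FPKM in AAV-ChREBP libraries of the same numbers, a log2 fold change of 0.21 (SE 0.086, limma adjusted p = 1.00). Fbln1, fibulin 1, was at 2.79, 2.54, 1.92, 2.099 and 2.27 FPKM and 2.63, 2.302, 3.18, 3.63 and 2.47 FPKM, a log2 fold change of 0.20 (SE 0.10, limma adjusted p = 1.00). Both overlapped between the vectors. By library number, Mfap5 was higher with ChREBP for every number, while Fbln1 was higher for some numbers and lower for others. Neither was called with the number as a block.

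Collagens overlapped as well, and AAV-GFP values come first in the pairs that follow. Col1a1 was at 104, 102, 67.9, 44.97 and 70.02 FPKM and 101, 83.1, 173, 87.2 and 50.1 FPKM, and Col3a1 at 85.96, 111, 83.7, 47.4 and 64.5 FPKM and 92.7, 98.2, 94.8, 87.8 and 54.6 FPKM. Col6a1 was at 33.7, 40.7, 28.8, 20.4 and 31 FPKM and 36.6, 37.02, 38.6, 32.8 and 24.8 FPKM, and Dcn at 248, 245, 219.8, 158 and 268 FPKM and 249, 259.9, 271, 282 and 188 FPKM. The libraries of lowest values were AAV-GFP 7, the lowest of its group for 28 of 37 members (28.2% of all genes), and AAV-ChREBP 8, the lowest for 30 of 37 (27.1%). Fmod was at 104, 93.5, 70.8, 68.9 and 100.4 FPKM and 89.2, 80.9, 135, 111 and 61.5 FPKM, Tnmd at 15.4, 21.2, 12.7, 8.13 and 15.6 FPKM and 13.7, 15.4, 19.6, 13.6 and 8.31 FPKM, and Comp at 5.47, 6.95, 3.42, 4.49 and 5.56 FPKM and 5.001, 4.07, 9.53, 5.92 and 3.499 FPKM. Tnc was at 4.13, 3.02, 2.65, 1.73 and 4.41 FPKM and 3.08, 3.33, 4.71, 3.41 and 2.06 FPKM, Postn at 7.26, 9.04, 4.71, 5.01 and 4.32 FPKM and 6.73, 6.09, 6.597, 8.19 and 3.13 FPKM. Thbs1 was at 4.1, 4.64, 2.37, 3.54 and 5.93 FPKM and 3.55, 2.55, 4.27, 3.98 and 3.21 FPKM, and Timp1, below the level tested here, at 0.415, 0.360, 0.233, 0.583 and 0.310 FPKM and 0.140, 0.470, 0.391, 0.608 and 0.360 FPKM.

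The C2C12 lines come from 1 myoblast line. Endothelial markers summed to 0.15 FPKM or less, and 7 members were below the level tested: Fmod, Comp, Thbs4, Eln, Tnmd, Chad and Col15a1, of which Fmod was at 0 in all 8 libraries. Of the 31 members tested, 6 rose and 11 fell, where 16.3% of all genes rose and 14.1% fell, and the groups did not overlap for 8 members with ChREBP higher (16.6% of all genes) and 12 with ChREBP lower (14.7%). The matricellular genes Tnc, Postn, Thbs1 and Fn1 rose, with Col12a1 and Mfap5. Sparc, of the same role group, went the other way and was not called. It was at 1198, 1196, 1240 and 1195 FPKM in the vector and 1184, 1189, 1189 and 1154 FPKM in the ChREBP line, without overlap. All 3 small proteoglycans, both chains of collagen I, Col4a1, Col14a1, Fbln1, Fbn1, Timp2 and Pdgfra fell. The median log2 fold change of the members was -0.030, and that of all genes 0.0026.

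The promoters of 3 of the members with the largest differences are shown because ChREBP binds DNA, with its partner Mlx, at carbohydrate response elements built from a pair of E-box-like motifs. Each sequence is a RefSeq window of GRCm38.p6, 250 bases before to 50 bases after an annotated start, read 5′ to 3′ on the strand of the gene: Tnc at chr4:64046966-64047265 on the minus strand, Postn at chr3:54360857-54361156 and Fbln1 at chr15:85205699-85205998 on the plus strand. Each of the 3 genes has another window in RefSeq. Capitals mark the palindromic E-box CACGTG and the TATA motif TATAAA, searched on both strands, which share no bases here.
Tnc: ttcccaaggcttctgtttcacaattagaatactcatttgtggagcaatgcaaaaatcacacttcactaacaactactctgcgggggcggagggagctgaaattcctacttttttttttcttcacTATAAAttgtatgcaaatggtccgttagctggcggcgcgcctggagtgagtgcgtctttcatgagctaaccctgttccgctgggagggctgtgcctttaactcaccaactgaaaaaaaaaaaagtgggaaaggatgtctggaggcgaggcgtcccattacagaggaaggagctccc
Postn: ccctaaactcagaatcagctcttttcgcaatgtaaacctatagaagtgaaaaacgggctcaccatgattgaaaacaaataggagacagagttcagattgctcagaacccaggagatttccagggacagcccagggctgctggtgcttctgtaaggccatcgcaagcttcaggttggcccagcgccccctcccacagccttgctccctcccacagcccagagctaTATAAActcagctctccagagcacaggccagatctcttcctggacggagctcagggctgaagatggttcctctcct
Fbln1: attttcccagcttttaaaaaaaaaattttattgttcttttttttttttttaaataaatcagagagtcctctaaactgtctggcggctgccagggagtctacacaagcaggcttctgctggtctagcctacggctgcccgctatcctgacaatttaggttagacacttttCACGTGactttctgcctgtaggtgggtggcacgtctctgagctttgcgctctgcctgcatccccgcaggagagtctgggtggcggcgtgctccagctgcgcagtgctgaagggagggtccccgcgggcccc

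From RefSeq, 26 promoter windows matched 22 of the 38 members. CACGTG was found in 7.15% of all 32851 windows and, among the members, in 2 of the 26 windows, both of Fbln1, which is near that share. TATAAA was found in 13.6% of all windows and in 5 of the 26 windows of members, those of Chad, Col3a1, Postn and Tnc. The other Postn window, at chr3:54359017-54359316 on the plus strand, held neither motif, while the other windows of Tnc and Fbln1 held the same motif as those shown. In the windows shown, TATAAA started at position -126 from the start of Tnc and -26 from that of Postn, and CACGTG at -81 from that of Fbln1. Tnc and Postn had the largest increases, but Lum, with a larger decrease than Fbln1, is not shown. The 3 windows therefore do not set members that rose against members that fell. These letters are a description of the windows and not evidence of binding.

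The increases were led by matricellular genes, and vector values come first in the pairs that follow. Tnc was at 55.05, 57.4, 58.8 and 60.6 FPKM in the 4 vector libraries and 124, 132, 133 and 136 FPKM in the 4 ChREBP libraries, a log2 fold change of 1.16 (SE 0.037, limma adjusted p = 4.70e-09). Postn was at 5.54, 6.06, 5.05 and 5.93 FPKM and 14.98, 15.7, 14.9 and 14.4 FPKM, a log2 fold change of 1.27 (SE 0.053, limma adjusted p = 3.45e-08). Thbs1 was at 210.1, 208, 213 and 206 FPKM and 337, 338, 334 and 319.9 FPKM, a log2 fold change of 0.66 (SE 0.028, limma adjusted p = 3.54e-08). The groups were far apart for these 3 genes, and each library of 1 line lay close to the others of its line. Fn1 differed by less, at 1806, 1844, 1828 and 1782 FPKM and 1999, 1943, 2035 and 1969.7 FPKM, a log2 fold change of 0.13 (SE 0.034, limma adjusted p = 0.0139), and it was uncalled without ChREBP library 3 (adjusted p = 0.0506 by limma). Col12a1 was at 168, 164, 169.6 and 163 FPKM and 216, 214, 224 and 187 FPKM, a log2 fold change of 0.33 (SE 0.049, limma adjusted p = 4.29e-04), and Mfap5 at 45.04, 43.5, 42.9 and 42.4 FPKM and 53.5, 50.9, 54.4 and 53.2 FPKM, a log2 fold change of 0.28 (SE 0.031, limma adjusted p = 5.29e-05). The lines did not overlap for any of the 6.

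The decreases were led by Lum, the collagen-binding proteoglycan lumican, at 7.37, 6.93, 7.61 and 9.01 FPKM in the vector and 3.62, 4.47, 4.14 and 3.74 FPKM in the ChREBP line, a log2 fold change of -0.80 (SE 0.077, limma adjusted p = 2.03e-05). Fbln1 was at 175, 174, 172 and 172 FPKM and 108, 91.96, 101 and 103 FPKM, a log2 fold change of -0.78 (SE 0.042, limma adjusted p = 2.65e-07). Col14a1 was at 1.93, 2.03, 2.27 and 1.99 FPKM and 0.930, 0.800, 0.800 and 1.02 FPKM, a log2 fold change of -0.70 (SE 0.066, limma adjusted p = 1.84e-05). Lum and Col14a1 were low in both lines, while Fbln1 was among the well expressed matrix genes. Col1a1 was at 161, 160.2, 152 and 151 FPKM and 111, 102, 109 and 108 FPKM, a log2 fold change of -0.53 (SE 0.034, limma adjusted p = 8.64e-07). Dcn was at 572, 574, 571 and 592 FPKM and 468, 483, 477 and 466 FPKM, a log2 fold change of -0.28 (SE 0.028, limma adjusted p = 2.39e-05), and Pdgfra at 20.2, 19.9, 19.5 and 19.96 FPKM and 16.4, 16.8, 15.5 and 17.3 FPKM, a log2 fold change of -0.26 (SE 0.037, limma adjusted p = 4.39e-04). No member of this group overlapped between the lines.

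The other 5 members that fell were Col1a2, Timp2, Bgn, Fbn1 and Col4a1, with log2 fold changes of -0.16, -0.16, -0.14, -0.13 and -0.095. Col3a1, the most abundant member here at 2313, 2256, 2243 and 2185 FPKM in the vector and 2259, 2066, 2225 and 2193 FPKM in the ChREBP line, was not called, nor were Col6a1, at 256, 257, 243 and 238 FPKM and 251, 244, 249 and 241 FPKM, and Timp1, at 611, 592, 536 and 556 FPKM and 617, 615, 664 and 612 FPKM. Timp1 had an adjusted p of 0.0507 by limma with no overlap between the lines. The 2 tendon genes tested, Scx and Mkx, had log2 fold changes of -0.026 and -0.13 with limma adjusted p of 0.725 and 0.167.

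Muscle and smooth muscle markers moved with these genes. The 4 smooth muscle markers summed to 389 to 411 FPKM in the vector and 714 to 737 FPKM in the ChREBP line, with all 3 tested called higher (Acta2, Cnn1 and Tagln). Muscle fibre markers summed to 465 to 503 and 629 to 660.4 FPKM, with 5 of 7 higher and 2 lower, and myoblast and myotube markers to 752 to 773 and 849 to 873 FPKM, with 3 of 6 higher and 1 lower. Fibroblast markers summed to 2368 to 2561 and 2027 to 2173 FPKM, with 3 of 7 lower. Tenocyte markers that are not members summed to 196 to 217 and 192 to 194 FPKM, with Cilp, Fibin and Prg4 called higher and Tppp3 lower of 4 tested, and Kera was at 0 in every library. The part of these differences between the lines in the matrix genes was not tested. Of 15 genes of the TGF-beta pathway 6 rose, among them Tgfb1, Ccn1 and Ccn2, and 5 fell, and of 18 collagen-processing genes 2 rose and 8 fell, against 16.3% of all genes rising and 14.1% falling.

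**Figure D5:**
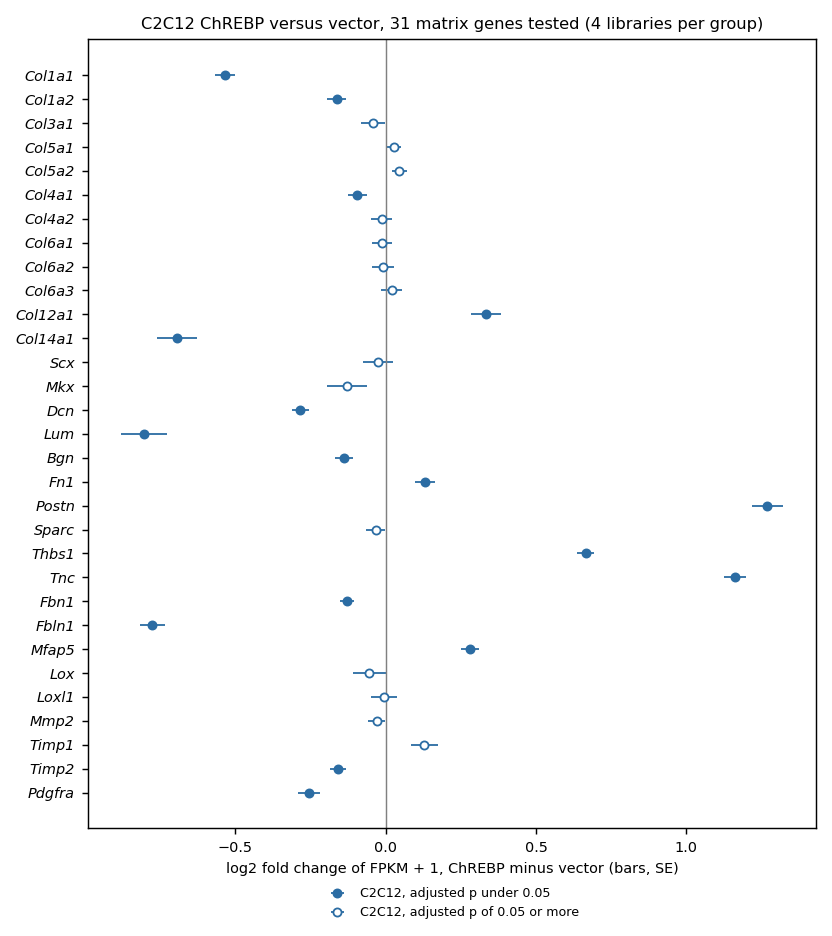
Log2 fold change of FPKM + 1 between the ChREBP and vector lines of C2C12 (points, with SE as bars) for the 31 members tested, with filled points for an adjusted p under 0.05. Postn (1.27), Tnc (1.16) and Thbs1 (0.66) are the farthest to the right, and Lum (-0.80), Fbln1 (-0.78) and Col14a1 (-0.70) the farthest to the left.

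Across the muscle groups the order of levels was steady at both ends. Dcn, Sparc and Fmod were among the 6 highest members by mean FPKM in all 12 muscle groups, and Mkx was among the 6 lowest in each. In C2C12 the order was another one, with Col3a1, Fn1 and Sparc the highest in both lines. Within the muscle groups the mean of log2(FPKM + 1) over the 38 members ran, by library, from 2.76 to 2.93 in the 8 HFrD libraries and from 3.02 to 4.42 in the 8 Norm libraries. In the chow libraries it ran from 2.36 to 3.32 in GC F/F, 3.05 to 3.97 in GC ChMKO, 2.66 to 3.90 in SOL F/F and 3.47 to 3.92 in SOL ChMKO. These means describe the libraries and were given no test.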

How the data were processed

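RNA was measured in 62 libraries made with a kit that does not mark strand. All values are FPKM as the authors deposited them. The table of the AAV and that of the C2C12 libraries do not name their unit, which was taken as FPKM from the values. The submitters' processing notes name fastp 0.18.0, Bowtie2 2.2.8, HISAT2 2.1.0, StringTie 1.3.1 and RSEM, and the build GRCm39, while positions in the chow table are those of GRCm38. Genes of the AAV table were named from NCBI gene IDs through RefSeq (20918 of 21039 matched). Which tool made which table is not given in the sources used here.

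For each of 13 comparisons, log2(FPKM + 1) was fitted with limma 3.58.1 in R 4.3.3 (trended prior, two-sided) over all genes whose mean in the libraries compared reached 0.5 FPKM, and p-values were adjusted by the Benjamini-Hochberg method over all of them. In 3 further fits the interaction with genotype was tested. Fits used only the groups compared. The fits were tested on simulated data. The alternatives were a pseudocount of 0.1, no filter, a filter at 5 FPKM, rescaling by the median of ratios, leaving out each library, a replicate block, and voom on recovered reads in the hypoxia and diet experiment, where 99.962% of values were whole reads within 0.05. Reads per library limit the precision of low values, and depth is unknown for C2C12.

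The members and all lists were chosen with earlier results of these data known. The genes named in a comparison were all members called where these were 12 or fewer, otherwise the 6 with the largest and the 6 with the smallest fold change among those called, and the 2 with the smallest p where none was called. Values by library were also given for 11 members of different roles: Col1a1, Col3a1, Col6a1, Dcn, Tnmd, Fmod, Comp, Timp1, Tnc, Thbs1 and Postn. Other members named in a clause were added to complete their role group.

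Same-numbered SOL and GC libraries share a number in the labels, and the SOL F/F library called 69 here, after its column, bears in its title the number 59, which the labels otherwise give to a ChMKO mouse. The comparisons of the muscles were fitted without pairing by these numbers, while the interaction of genotype with muscle took the number as a random effect and was run without it as an alternative chosen after seeing the data. In the AAV experiment the correlation of the deviations of same-numbered libraries from their group means ran from 0.211 to 0.49. For 4 of 5 it was highest with their own number. The fit there was not paired, and the number served as a block only in an alternative. No 2 libraries held identical values, and the lowest correlation within a group was 0.942. Some members share bases with other genes, and where the chow table gave the other gene a value, it was above the member's for Scx (Bop1), Pdgfra (Mir7025) and Col4a1 (Col4a2, 21.5 against 21.03 FPKM over 22 shared bases).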

Additional observations from a re-analysis of the deposited data

Results flagged for a closer look

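Among 143 pairs of gene and group examined, for up to 11 members in each of the 14 groups, 24 held a library far from the others of its group, with the gap to its neighbour above Dixon's 95% critical share of the range for a group of 4 or 5. Chance alone gives about 1 in 20, and members of 1 library share its RNA, so the pairs are not independent. Of the values above, those from SOL F/F of mouse 71 were the lowest of their group: Col1a1 at 11.1 FPKM, Tnmd at 1.39 FPKM, Fmod at 4.13 FPKM, Comp at 1.29 FPKM and Tnc at 0.253 FPKM. GC F/F of mouse 69 was the lowest for Col3a1 at 18.4 FPKM, Col6a1 at 13.3 FPKM, Dcn at 61.5 FPKM and Fmod at 5.04 FPKM.

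Norm F/F of mouse c369 was the highest for Thbs1 at 33.7 FPKM and Postn at 5.54 FPKM, and Norm ChMKO of mouse KO_370 for Postn at 6.26 FPKM. Hypo ChMKO of mouse c345 was the highest for Col3a1 at 38.4 FPKM and Timp1 at 3.70 FPKM, and that of mouse c332 the lowest for Fmod at 64.8 FPKM and Comp at 4.04 FPKM. Hypo F/F of mouse c341 was the highest for Tnc at 2.58 FPKM. HFrD F/F of mouse C310 was the lowest for Tnc at 0.910 FPKM, and HFrD ChMKO of mouse C291 the lowest for Col6a1 at 9.42 FPKM.

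The remaining values came from 5 libraries. SOL ChMKO of mouse 72 was the highest for Timp1 at 3.23 FPKM and that of mouse 74 the lowest for Thbs1 at 11.2 FPKM. AAV-ChREBP library 8 was the lowest for Col3a1 at 54.6 FPKM. In C2C12, vector library 4 was the highest for Dcn at 591.8 FPKM and ChREBP library 3 the highest for Timp1 at 663.6 FPKM. What set these libraries apart was not tested.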

How the results depend on the processing

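With no filter on low genes Comp, Col12a1, Lox and Loxl1 of F/F and Tnc and Timp2 of ChMKO lost their calls between the muscles, and with a pseudocount of 0.1 Comp and Col12a1 of F/F did. Under the alternatives no called value changed direction. In SOL against GC of F/F mice, 12 members were called, 7 with the filter at 5 FPKM, which removes 5 of the 12 from the test or the calls, and between 8 and 22 with 1 library left out. After rescaling 8 were called there. The share of all genes called was not counted for the filter at 5 FPKM, for rescaling or for most fits without 1 library, so these counts lack a background. In ChMKO mice 9 members were called in that contrast, and between 7 and 14 with 1 library left out. With the library number as a replicate block 15 were called in F/F, with Fn1, Mfap5 and Tnmd added (limma adjusted p of 0.0417, 0.0204 and 0.0485), where 36.8% of all genes were higher and 12.1% lower. In ChMKO the block gave 14, with Col4a1, Col4a2, Fn1, Thbs1 and Tnmd added (limma adjusted p of 0.0015 for both collagens, 0.0294, 0.0351 and 0.0430), 11 higher and 3 lower, where 39.5% of all genes were higher and 16.1% lower. Deviations of same-numbered libraries correlated at -0.0169 to 0.322 in F/F and 0.021 to 0.0492 in ChMKO, with 4 of 5 and 1 of 5 highest for their own number. Rescaling removed a shift of all genes of 0.18 in F/F and 0.15 in ChMKO on the log2 scale, after which 27 members were above and 10 below 0 in F/F, and 18 above and 19 below in ChMKO.

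In HFrD against Norm of ChMKO mice, the median log2 fold change of the members was -1.06, and it was -1.24 with a pseudocount of 0.1, -1.27 with the filter at 5 FPKM and -0.87 after rescaling, which removed a shift of all genes of -0.17. After rescaling 2 members were above 0 and 36 below, and 30 were called. The share of all genes called after rescaling was not counted, and the 44.6% that fell belongs to the fit without it. Mfap5 was also uncalled without Norm ChMKO of mouse KO_370 or KO_375 and without HFrD ChMKO of mouse C291 or C299. The interaction of genotype with diet gave 0 to 6 members called with 1 library left out. In C2C12 the library number did not pair the libraries (correlations of -0.0938 to 0.176, with 2 of 4 highest for their own number), and 17 members were called with and without it as a block. The share of all genes called with the block was not counted. Fn1 there was uncalled with no filter (limma adjusted p = 0.0539) and without ChREBP replicate 3. The alternatives left 1254 values in the same class as with all libraries and the first settings, with 60 results for single members uncalled and 8 counts or medians moved. The cause of these changes was not tested beyond the shifts named. Depth limits the low members such as Mkx and Timp1.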
